A study of Mus musculus with 6 samples.

Results

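The comparison described here sets mouse embryonic stem cells that received a scrambled antisense morpholino oligonucleotide (AMO) against untreated cells, and so addresses what morpholino delivery does when U1 is not the target. Its members are the 4 libraries titled for the scrambled AMO and for untreated cells, 2 in each group, out of 6 libraries in the series. All cells were of the V6.5 line, pluripotent cells of C57BL/6-129 background. The untreated cells received no AMO, and the other 2 libraries of the series came from cells given a U1-targeting AMO. The labels refer to published U1 inhibition conditions, and do not themselves give the dose, the duration or the way the AMO was delivered. They give no mock delivery without an AMO, so the scrambled sequence and its delivery cannot be told apart. The series describes 2 biological replicates per condition.

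A morpholino is a synthetic nucleic acid analogue that pairs with RNA without triggering its degradation. An AMO against U1 masks the end of U1 RNA that pairs with 5′ splice sites, and a scrambled AMO serves as the control for delivery. Most messenger RNAs end where a cleavage complex recognises a hexamer such as AATAAA a short way upstream of the cut and a poly(A) tail is added. Many genes have several such sites in tandem, and use of an upstream (proximal) site gives a shorter transcript than use of a downstream (distal) one. The hexamers that carry most of the values below, written 5′ to 3′ as deposited, are these.
Canonical signal: AATAAA
Second commonest signal: ATTAAA
First variant described: TATAAA
Second variant described: AATATA

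For each library the data give cleavage positions, their strand and their reads. Totals in the 4 libraries ran from 26846406 to 62257923 reads. Positions at most 24 nt apart on one strand were joined into clusters, and levels are given as CPM, a position's or cluster's reads scaled to the library total as counts per 1000000 reads. Coordinates are in mm9. Positions were not matched to genes here, so no gene is named and the cell type was not checked against marker genes. Read names placed the untreated libraries in 2 runs of their own, and placed scrambled AMO replicates 1 and 2 in the runs of U1 AMO replicates 1 and 2. Treatment and sequencing run therefore cannot be told apart in any difference between the groups.

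The scrambled AMO libraries lay no further from the untreated libraries than the untreated libraries lay from each other at 2 of 4 pairings. Over the 7282 clusters that averaged 20 CPM or more in the 4 libraries, the median absolute log2 difference (with 0.1 CPM added) was 0.52 between the untreated libraries and 0.33 between the scrambled AMO libraries. Untreated replicate 1 differed from scrambled AMO replicates 1 and 2 by 0.45 and 0.45 on this scale. Untreated replicate 2 differed from them by 0.55 and 0.66, so it stood further from every other library than untreated replicate 1 did. The closest libraries were those that shared a run: scrambled AMO and U1 AMO of replicate 1 differed by 0.27, and those of replicate 2 by 0.18. Differences of over 2-fold were found at 19.6% of the clusters between the untreated libraries, at 7.91% between the scrambled AMO libraries and at 14.2% to 30.5% across the groups. Where a scrambled AMO library was set against the U1 AMO library sequenced beside it, this share was 1.84% and 0.577%.

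**Figure D1:**
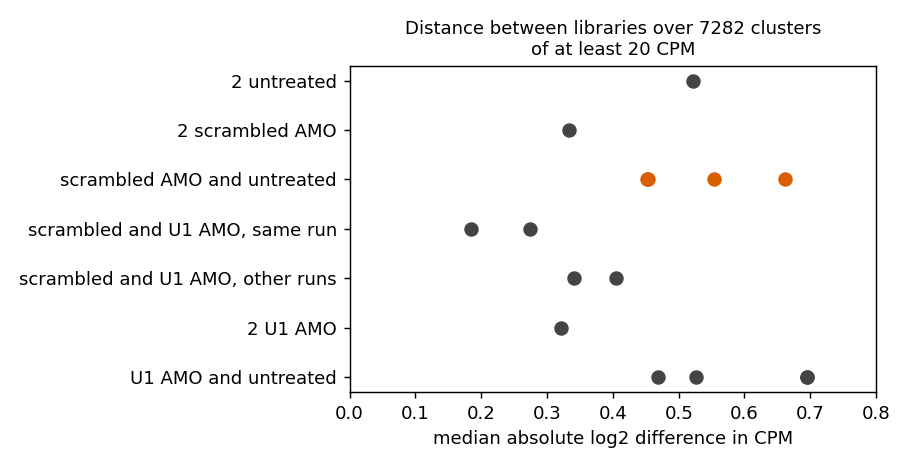
Each point is 1 pair of libraries, and the horizontal axis gives the median absolute log2 difference in CPM over 7282 clusters. The 4 pairings of scrambled AMO with untreated (orange) run from 0.45 to 0.66, around the value of 0.52 for the untreated pair, and scrambled and U1 AMO libraries sharing a run are the closest at 0.27 and 0.18.

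No cluster passed the test between scrambled AMO and untreated cells. Of 80049 clusters tested, 0 were called in either direction (0% of those tested; edgeR quasi-likelihood test, Benjamini-Hochberg adjusted p under 0.05). At an unadjusted p under 0.05, 6818 were higher (8.52%) and 3672 lower (4.59%). DESeq2 called 1371 clusters higher (1.71% of 80049) and 885 lower (1.11%), or 2.82% in all. With no filter on low counts edgeR called 1100 higher (0.118% of 931826) and 179 lower (0.0192%), or 0.137% in all. Without U1 AMO replicate 1 it called 20 higher (0.0183%) and 2 lower (0.00183%), or 0.0201% in all. Leaving that library out changed both the estimate of the spread and the clusters that passed the filter, which were then 109560. The common dispersion of the fit was 0.329, so 0 calls do not show that levels were alike. The clusters that DESeq2 called higher were mostly weak sites, with a median of 1.28 CPM over the 4 libraries, and those it called lower were stronger, with a median of 9.51 CPM. Over all 80049 tested the median was 0.456 CPM. Of the lower ones 62.3% carried AATAAA at their strongest position, against 44.4% of the higher ones and 49.3% of all tested. These shares were not matched for level, and AATAAA was commoner at strong sites. Among the 7282 clusters of at least 20 CPM, 5029 carried it.

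Among the 7282 clusters of at least 20 CPM, both scrambled AMO libraries stood above both untreated libraries at 1500 (20.6%) and below them at 2005 (27.5%). The gaps were small at most of these clusters. Groups that do not overlap reach only p = 0.333 in an exact permutation test of 2 libraries against 2. Such orders are therefore frequent even without a difference. The nearest libraries of the 2 groups were over 2-fold apart at 106 of the higher and 143 of the lower clusters, and over 4-fold apart at 7 and 4. The balance differed between weak sites and most stronger ones. At 0.5 to 1 CPM, 26.1% of 10402 clusters were higher in both scrambled AMO libraries and 18.1% lower; at 20 to 100 CPM these shares were 21.0% and 27.8% of 5311. The 223 clusters of at least 500 CPM were nearly balanced, at 22.4% and 23.3%. The balance also depended on the scaling. With library totals adjusted by the TMM factors of the edgeR fit, 1300 of the 7282 clusters were higher (17.9%) and 2131 lower (29.3%). The shares by level are given for CPM on unadjusted totals only.

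The 10 clusters furthest above and the 10 furthest below the untreated libraries were ranked by the ratio of the nearest libraries of the 2 groups. They were chosen by these values, so their size is a description. None was called by the main edgeR fit, where the adjusted p was 0.266 for 19 of them and 0.297 for the other. Most were called by edgeR under another setting, chiefly with no filter on low counts. All 20 were called by DESeq2, with adjusted p from 2.84e-12 to 0.0171.

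The first of the higher clusters lay at chr18:43887718-43887744 on the minus strand. It had 6.46 and 6.96 CPM in the untreated libraries and 51.6 and 60.4 with the scrambled AMO. The U1 AMO libraries had 44.3 and 50.05 CPM, close to the scrambled AMO level. The log2 difference was 3.04 ± 0.33 (SE, edgeR), and the nearest libraries were 7.41-fold apart.

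At chr19:8965224-8965250 (plus strand, AATAAA 21 nt before the strongest position) the untreated libraries had 30.3 and 27.6 CPM and the scrambled AMO libraries 177.6 and 166.4. A second cluster 1886 nt downstream on the same strand had 7.29 and 10.6 CPM untreated and 21.7 and 22.4 with the scrambled AMO. Another, 7140 nt downstream, had 62.3 and 51.8 against 64.8 and 83.7 CPM. The difference was largest at the cluster furthest upstream of the 3, but that cluster was named for the size of its difference. The order of the 3 therefore says nothing on position.

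At chr5:122894441-122894470 (plus strand, AATAAA) the values were 10.8 and 8.71 CPM untreated and 57.7 and 56.1 with the scrambled AMO. The cluster at chr14:76907553-76907635 (plus strand, AATAAA) spanned 83 nt, and had 42.3 and 49.5 CPM untreated and 355.8 and 235.3 with the scrambled AMO. Its U1 AMO levels were 582.0 and 310.3 CPM, so in both AMO groups replicate 1 stood above replicate 2.

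The cluster at chr17:8635345-8635364 (plus strand, AATAAA) met the ranking rule in another way. It had 3 and 25 reads untreated, 4558 in scrambled AMO replicate 1 and 131 in replicate 2, or 0.0778, 0.413, 169.8 and 2.10 CPM. The U1 AMO libraries showed the same split, with 133.1 CPM in replicate 1 and 1.64 in replicate 2. Replicate number and run coincide in both AMO groups and cannot be told apart here. The mean of 85.9 CPM with the scrambled AMO had an SD of 118.6 (n = 2).

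The remaining 5 higher clusters had 3.11 to 98.6 CPM untreated. The strongest of them untreated, at chr1:155756776-155756807 (plus strand), used TATAAA and had 98.6 and 54.5 CPM untreated and 358.3 and 381.8 with the scrambled AMO. A cluster 63 nt downstream of it, listed with AAAAAA, was also higher, with 15.3 and 22.9 CPM untreated and 68.9 and 52.1 with the scrambled AMO.

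Among the lower clusters the first was at chr8:47082240-47082272 on the minus strand, with ATTAAA 19 nt before its strongest position. It had 67.2 and 72.9 CPM untreated and 12.0 and 9.57 with the scrambled AMO, and the U1 AMO libraries had 12.3 and 9.25. The log2 difference was -2.74 ± 0.30 (SE, edgeR). A cluster of the opposite strand overlapped it, at chr8:47082203-47082270 with AATAAA, and its groups did not overlap either, at 32.3 and 46.5 against 31.7 and 21.4 CPM, though their nearest values were almost equal.

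At chr11:87369318-87369328 (plus strand, AATAAA) the untreated libraries had 41.4 and 60.5 CPM and the scrambled AMO libraries 5.55 and 7.47, a ratio of group means of 7.83. At chr2:34749270-34749307 (minus strand) the values were 40.7 and 49.2 against 6.82 and 8.72 CPM. Its ATTAAA lay 36 nt before the strongest position, near the upper end of the deposited distances of 6 to 40 nt. At chr9:58317397-58317447 (plus strand, TATAAA) they were 39.4 and 44.98 against 9.72 and 6.17 CPM. The strongest of the 10 untreated was at chr7:6656576-6656619 (minus strand, AATAAA), with 251.9 and 303.9 against 63.3 and 32.3 CPM.

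At all 10 lower clusters the U1 AMO libraries were also below both untreated libraries, with 4.57 to 51.5 CPM. That comparison uses the same untreated libraries, so it is not separate evidence. At chr11:72203612-72203638 (minus strand, AATATA) a second cluster 960 nt downstream was lower too. The first had 86.9 and 68.0 CPM untreated and 16.4 and 17.5 with the scrambled AMO, and the second 17.1 and 13.7 against 2.68 and 3.28.

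**Figure D2:**
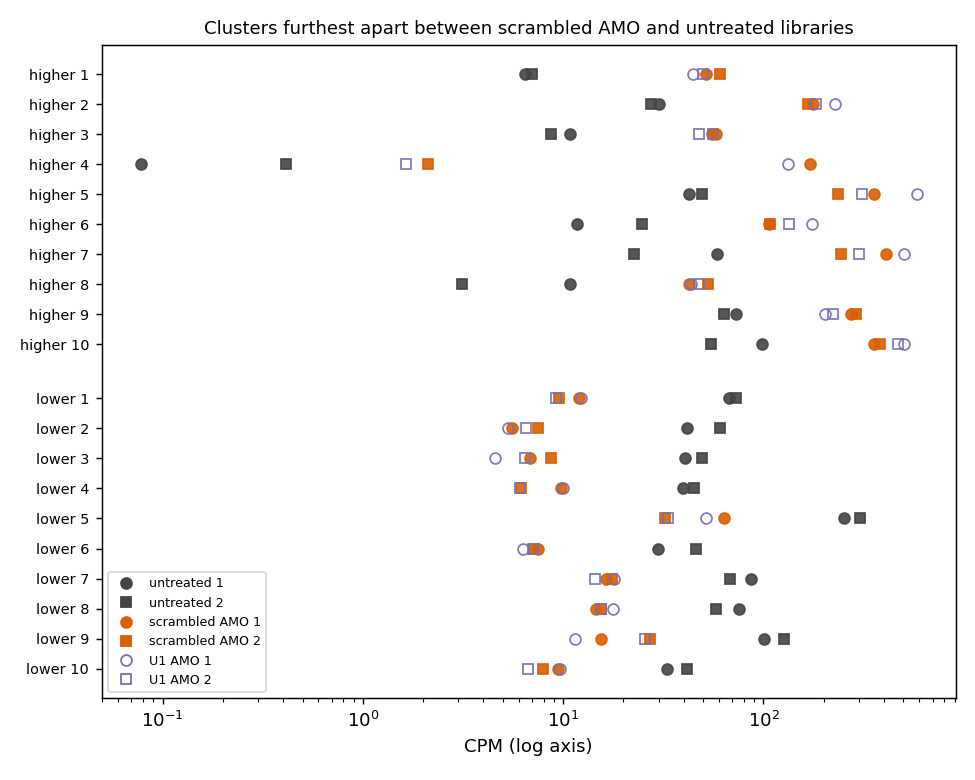
CPM (log axis) of the 20 clusters in all 6 libraries, in the order of the ranking; circles are replicate 1, squares replicate 2, and open symbols the U1 AMO. The fourth of the higher clusters, at 169.8 and 2.10 CPM with the scrambled AMO, is the one whose level splits by replicate number in both AMO groups.

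Reads were divided a little differently among the signals, while the total of the 2 commonest was alike. AATAAA or ATTAAA accompanied 87.7% and 87.8% of untreated reads outside chromosome M and 87.9% and 87.2% with the scrambled AMO, so the groups overlapped (exact permutation p = 1, two-sided). AATAAA alone accompanied 69.8% and 70.1% of untreated reads against 71.2% and 70.4%, a mean difference of 0.820 percentage points. ATTAAA went the other way, with 17.8% and 17.8% untreated against 16.7% and 16.9%. Both differences reached only p = 0.333, the smallest that 2 libraries against 2 allow in an exact two-sided permutation test. By distinct positions the order for AATAAA was the reverse, with 47.96% and 48.01% of positions untreated and 47.8% and 43.3% with the scrambled AMO, and ATTAAA overlapped. These positions were counted at full depth, which differed between the libraries, and the lowest share was in the deepest library.

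AATATA showed the most regular difference of the variants. It accompanied 1.32% and 1.30% of untreated reads and 1.01% and 1.02% with the scrambled AMO, and the U1 AMO libraries had 0.984% and 0.981%. TATAAA had 2.07% and 2.39% against 1.93% and 1.87%. Of the 36 hexamers, 9 were higher in both scrambled AMO libraries (25% of them) and 3 lower (8.33%). The strongest clusters touched these shares unequally. Without the 219 clusters of at least 500 CPM, the ATTAAA share was 17.2% and 17.5% untreated against 16.2% and 16.5%, and the groups for AATATA and TATAAA still did not overlap, but those for AATAAA did, at 68.1% and 68.2% against 69.0% and 68.2%.

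The ATTAAA difference of -1.03 points was -0.953 without clusters of at least 500 CPM, so it hardly depended on them. That of AATATA was -0.297 points with them and -0.248 without. Single abundant ATTAAA sites differed in both directions. At chr2:154698154-154698191 (minus strand, ATTAAA) the untreated libraries had 1887 and 3515 CPM and the scrambled AMO libraries 1507 and 1370. At chr5:121658975-121658994 (plus strand, ATTAAA) the order was the reverse, with 1237 and 814.4 against 1860 and 1875 CPM. By number of clusters, 30.02% of 1276 ATTAAA clusters of at least 20 CPM were lower in both scrambled AMO libraries and 15.8% higher. For the 5029 AATAAA clusters these shares were 26.6% and 21.8%.

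The distance from the signal to the cut was alike. The read-weighted mean was 22.2 and 21.8 nt in the untreated libraries and 22.0 and 22.1 nt with the scrambled AMO, and the median was 21 nt in all 4 (exact permutation p = 1 for the mean). Within clusters of at least 20 CPM, the strongest position held on average 46.8% and 55.9% of a cluster's reads untreated and 44.9% and 50.4% with the scrambled AMO. The groups overlapped (exact permutation p = 0.667). The difference of the means, -3.74 percentage points, was smaller than the SD of the untreated pair, 6.46 (n = 2).

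Tandem sites differed little between the groups in their mean use of the distal cluster. Pairs were consecutive same-strand clusters 200 to 10000 nt apart with at least 5 CPM each, 3300 in all, and the distal share is the part of the pair's reads in the downstream cluster. Averaged over pairs it was 51.7% and 52.1% untreated and 51.5% and 50.6% with the scrambled AMO (exact permutation p = 0.333, the smallest possible). The groups overlapped in each of 3 other forms of this mean. In pairs of at least 20 CPM it was 49.7% and 49.9% against 50.03% and 49.2%, a difference of -0.154 points instead of -0.891 (exact permutation p = 1). In pairs up to 2000 nt apart the difference was -0.680 points, and as a median over pairs -1.47 points (exact permutation p = 0.667 for both). Pair by pair, the distal share was higher in both scrambled AMO libraries at 642 pairs (19.5%) and lower at 806 (24.4%). Among 650 pairs 2000 to 5000 nt apart, 31.8% were lower and 17.7% higher, and among 700 pairs 1000 to 2000 nt apart 29.1% were lower and 14.7% higher. Among 818 pairs 200 to 500 nt apart the order was the reverse, with 15.5% lower and 22.1% higher. Whether these distance classes differ was not tested, and they were chosen after the data were seen.

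**Figure D3:**
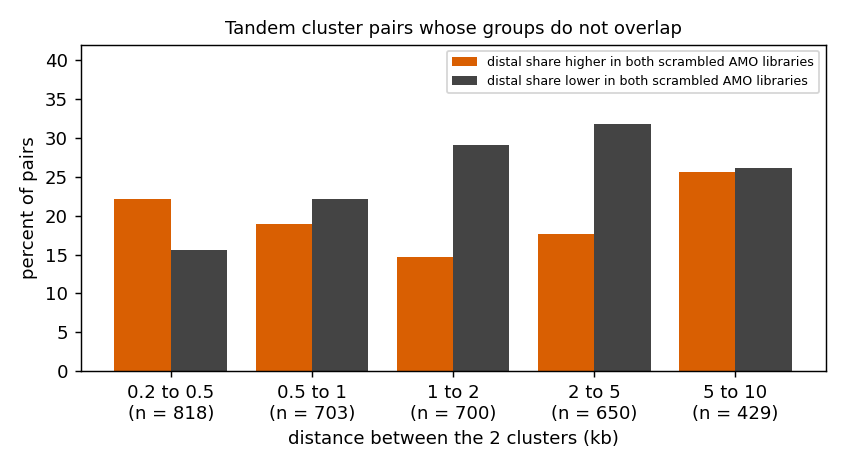
Percent of tandem pairs whose distal share was higher (orange) or lower (grey) in both scrambled AMO libraries than in both untreated ones, by distance between the sites in kb. Lower shares outnumber higher ones from 0.5 to 5 kb, with 29.1% against 14.7% at 1 to 2 kb and 31.8% against 17.7% at 2 to 5 kb, and the order is reversed at 0.2 to 0.5 kb.

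The distal share lay furthest below untreated, by the nearest libraries, at chr11:17840063-17840130 (minus strand, AATAAA). This distal cluster had 19.2 and 18.1 CPM untreated and 11.8 and 9.77 with the scrambled AMO, while its proximal partner, 7691 nt upstream, had 3.37 and 2.10 against 22.5 and 17.8. The distal share was thus 85.1% and 89.6% untreated and 34.4% and 35.4% with the scrambled AMO. Both clusters differed, in opposite directions. In the 3 pairs furthest below untreated, no proximal cluster had AATAAA or ATTAAA at its strongest position. These 3 were chosen by their values, and the share of such proximal clusters among all pairs was not counted.

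The distal share lay furthest above untreated at chr4:133156454-133156474 (minus strand, AATAAA), also seventh among the higher clusters. It had 58.6 and 22.7 CPM untreated and 410.6 and 242.4 with the scrambled AMO. Its proximal partner 6437 nt upstream had 76.5 and 34.9 against 29.5 and 39.3 CPM, and the distal share was 43.4% and 39.4% against 93.3% and 86.0%. The next was at chr13:62376887-62376898 (plus strand, AATAAA), where the share was 46.6% and 15.3% untreated and 81.3% and 85.5% with the scrambled AMO. There the distal level overlapped between the groups, and the proximal cluster was lower, at 12.6 and 16.4 against 2.12 and 3.13 CPM.

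The scrambled AMO libraries listed more cleavage positions for the same number of reads. Thinned to 26846406 reads each, the untreated libraries had 646872 and 419663 distinct positions. By the same thinning 804486 and 707919 were found with the scrambled AMO, 1.42 times as many on average, and the groups did not overlap (exact permutation p = 0.333, the smallest possible). The untreated libraries alone differed by more than the nearest libraries of the 2 groups did. Positions with a single read made up 40.1% and 22.8% of those untreated and 47.9% and 47.5% with the scrambled AMO. Counting only positions with at least 2 reads, the groups overlapped, at 387791 and 323992 against 418937 and 371979. The number of molecules behind the reads was not measured, and its part in this result was not tested.

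Reads upstream of strong sites differed little in sum, and more when only weak sites were counted. Windows 2 to 50 kb upstream of 6488 strong clusters, those of at least 10 CPM with no stronger same-strand cluster within 50 kb, were summed on the same strand. They held 60979 and 60884 CPM untreated and 63978 and 61610 with the scrambled AMO, a ratio of means of 1.03. Downstream of the same clusters the sums were 60360 and 56941 against 62018 and 63941 CPM, a ratio of 1.07, so the ratio was not larger upstream. From 10 to 50 kb upstream the groups overlapped, at 47449 and 47190 against 48816 and 47172 CPM (exact permutation p = 1). From 10 to 50 kb downstream they did not, at 44913 and 41684 against 45444 and 45679 CPM, a ratio of 1.05 (exact permutation p = 0.333). Leaving out clusters over 5 CPM within the windows of 2 to 50 kb, the upstream sums were 10578 and 10413 CPM untreated and 14122 and 12373 with the scrambled AMO, a ratio of 1.26. The U1 AMO libraries had 27048 and 23219 CPM in the same windows, so the scrambled AMO lay nearer to the untreated level. Clusters were left out by their mean over the untreated and scrambled AMO libraries only. Clusters strong only with the U1 AMO thus stayed in its sums, which are not like for like. Downstream the weak-site sums were 8531 and 8293 CPM against 9735 and 8795, a ratio of 1.10. In the sums from 2 kb the groups did not overlap (exact permutation p = 0.333 each, the smallest possible), and whether the upstream and downstream ratios differ was not tested.

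**Figure D4:**
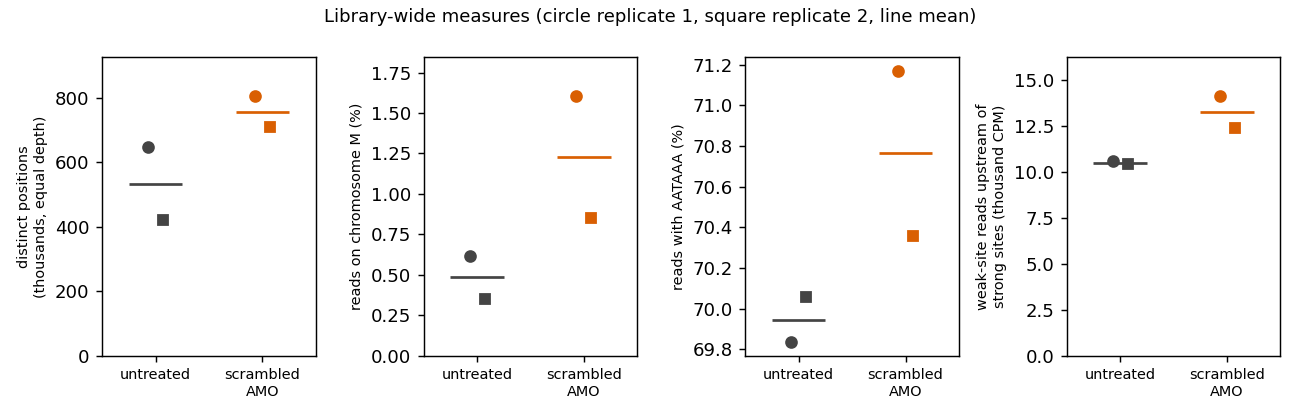
Library-wide values in each of the 4 libraries (circle replicate 1, square replicate 2, line the mean of 2); the axis for AATAAA does not start at 0. The groups do not overlap in any of the 4 panels, and the share of reads on chromosome M, at 0.617% and 0.352% against 1.60% and 0.853%, has the largest ratio. Not shown are measures whose groups overlapped, such as AATAAA and ATTAAA together, the distance to the cut and the share at the strongest position. The panels therefore do not show a general separation of the groups.

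Mitochondrial RNA, whose polyadenylation is carried out by a separate enzyme inside the organelle, had the largest ratio of these library-wide measures. Chromosome M held 0.617% and 0.352% of reads untreated and 1.60% and 0.853% with the scrambled AMO, a ratio of means of 2.54 (exact permutation p = 0.333, the smallest possible). The U1 AMO libraries had 2.15% and 1.22%. Counted as distinct positions instead of reads, at full and unequal depth, the groups overlapped. They had 0.704% and 0.613% of positions untreated and 0.759% and 0.575% with the scrambled AMO, a ratio of 1.01. The strands differed in direction of the means: plus-strand positions held 0.558% and 0.301% untreated against 1.55% and 0.825%, and minus-strand positions 0.0586% and 0.0511% against 0.0565% and 0.0285%, where the groups overlapped. Of 33 plus-strand clusters of at least 20 CPM, 26 were higher in both scrambled AMO libraries and 0 lower; of 6 on the minus strand, 2 were higher and 2 lower. The background shares for all clusters of that level were 20.6% and 27.5%. The strongest mitochondrial cluster, at positions 4944 to 4978 of the plus strand, had 1606 and 708.8 CPM untreated and 4454 and 3041 with the scrambled AMO. A minus-strand cluster at 15420 to 15477 had 240.9 and 322.1 against 149.1 and 89.3 CPM. In bulk samples, fewer cells of a type and less RNA per cell cannot be told apart.

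Levels also differed by chromosome, and on chromosomes 1, 6 and 11 the direction was the same in all 4 pairings of a scrambled AMO with an untreated library. The values are medians over clusters of at least 5 CPM, relative to the median over all 14180 such clusters, and were examined after the data were seen. The 4 pairings reuse the same libraries, so they are not independent. On chromosome 11 the 4 pairings gave -0.21, -0.10, -0.29 and -0.22 on the log2 scale over 1296 clusters. Chromosome 11 held 13.1% and 12.6% of untreated reads and 11.4% and 10.7% of those with the scrambled AMO, and the U1 AMO libraries had 11.3% and 10.7%. There 37.3% of the clusters were lower in both scrambled AMO libraries and 14.3% higher, against 27.3% and 21.5% over all chromosomes. The difference ran along the chromosome: of 7 windows of 20 Mb, 5 were below the overall median in all 4 pairings and 0 were above it in all 4. Chromosomes 8 and 10 each had 3 of 7 windows below in all 4, and chromosome 6 had 3 of 8. Chromosome 10 also had 2 above in all 4.

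Chromosome 6 gave -0.09, -0.16, -0.11 and -0.19 over 637 clusters, and its difference lay mostly in the end beyond 100 Mb. The window from 120 to 140 Mb gave -0.26, -0.35, -0.30 and -0.39 over 124 clusters, whereas the window from 60 to 80 Mb gave values between -0.07 and 0.03. Chromosome 1 went the other way, with 0.24, 0.15, 0.17 and 0.04 over 865 clusters, and 7 of its 9 windows were above the overall median in all 4 pairings. No other chromosome had more than 2 windows above it in all 4. Chromosomes 5 and 9 also kept one sign, at 0.04 to 0.08 and -0.06 to -0.01. So did chromosome M, at 0.42 to 1.85, and chromosome Y, at -1.16 to -0.42 over only 4 clusters. How many chromosomes would keep one sign by chance was not tested. Between the untreated libraries themselves these medians were 0.08 for chromosome 11, -0.04 for chromosome 6 and -0.04 for chromosome 1. The untreated pair differed more elsewhere, by 0.16 on chromosome 7 and -0.18 on chromosome 3, where the 4 pairings disagreed in sign. On the X chromosome the sign followed the scrambled AMO replicate, at 0.19 and 0.25 for scrambled AMO replicate 1 and -0.04 and -0.03 for replicate 2.

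**Figure D5:**
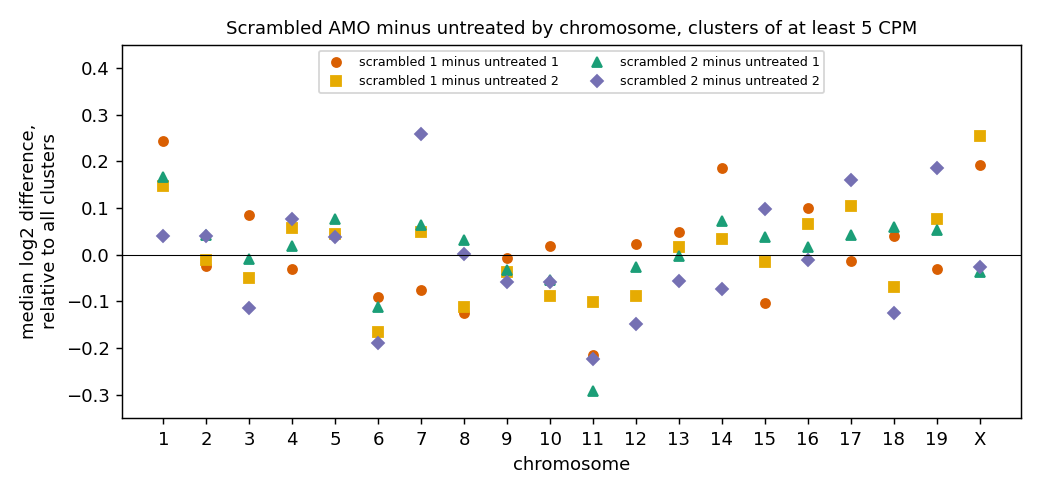
Median log2 difference of scrambled AMO minus untreated over clusters of at least 5 CPM on each chromosome, relative to all clusters; the 4 symbols are the 4 pairings of libraries. Chromosomes 6 and 11 are below 0 and chromosome 1 above 0 in all 4 pairings, while the pairings of chromosome 7 range from -0.07 to 0.26.

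Few sites were present in 1 group and absent from the other at any appreciable level. No reads in either untreated library and at least 0.1 CPM in each scrambled AMO library were found at 1702 of the 931826 joined clusters. These together held 431.1 and 349.6 CPM. The reverse was found at 262. The untreated libraries also listed fewer positions at equal depth, and the part of this in these counts was not tested. At 1 CPM or more in each library there were 5 clusters without untreated reads and 0 without scrambled AMO reads. The strongest of the 5 in its lower library was at chr10:84518008-84518015 (plus strand, AATAAA), with 1.97 and 1.93 CPM with the scrambled AMO, and 1.84 and 2.16 CPM with the U1 AMO.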

How the data were processed

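The authors' processing named cutadapt, Bowtie and the mm9 build, per the submitters' processing notes. For their versions, and for the filter on positions: not given in the sources used here. The authors deposited, per library, stranded cleavage positions with raw read counts and, as further columns, a hexamer and its distance in nt. The same deposited columns hold a whole number per position whose meaning is not given, and it was not used.

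The 2341170 pooled positions of all 6 libraries were joined at 24 nt into 931826 clusters. The main test was edgeR 4.0.16 (R 4.3.3; quasi-likelihood, TMM, filterByExpr) on one fit of the 6 libraries and 3 groups, tested on simulated data. DESeq2 1.42.0 was an alternative. Other values used Python 3.11.15, pandas 2.3.3 and numpy 2.4.6. Permutation tests were exact and two-sided over 2 against 2 libraries. Named clusters had at least 20 CPM and groups that did not overlap, and were the 10 highest and 10 lowest by the ratio of nearest libraries (a floor of 3 counts); for tandem pairs, 3 each by distal share. Clusters and tests were chosen with earlier results of these data known. A planned test on gene sums was not run. No molecular identifiers are described in the labels' protocols, so counts measure reads, not molecules.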

Additional observations from a re-analysis of the deposited data

How the results depend on the processing

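With 2 libraries a group, no exact test could pass its threshold, and the labels' numbers did not pair the libraries: the deviations of same-numbered scrambled AMO and untreated libraries correlated at r = -0.42 across 14180 clusters. With the replicate number as a block edgeR called 0 clusters in 6 and in 4 libraries, and with crossed numbers as a block, added after seeing the data, also 0 in both. The 0 calls of the main test were 2256 with DESeq2, 1279 when no low-count filter was applied and, in a fit added later, 22 without U1 AMO replicate 1. They were 0 with RLE factors, with the 4 libraries alone, with a joining distance of 10 nt, with clusters of at least 2 positions and without chromosome M. Leaving out a library gave 0 to 22. The 20 named clusters were called in 40 of 320 alternatives; their direction was fixed by how they were chosen.

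Within replicate numbers 1 and 2 (the replicate block), scrambled AMO minus untreated was 157614 and 288256 distinct positions, 0.201 and -0.624 points for AATAAA or ATTAAA, -0.135 and 0.359 nt in distance, -0.233 and -1.55 points in distal share, -1.93 and -5.55 points at the strongest position, 2999 and 725.8 CPM upstream and 0.988 and 0.501 points on chromosome M. Leaving out a library gave 109330 to 336540 positions, -0.538 to 0.115 points for the signals, -0.0720 to 0.296 nt, -1.35 to -0.433 and -8.31 to 0.825 points, 678.1 to 3047 CPM and 0.369 to 1.12 points. The signals' difference of -0.211 points was -2.65 by distinct positions, and turned to 0.0443 in clusters of at least 1 CPM, 0.820 for AATAAA alone and 0.405 for AATAAA without clusters of at least 500 CPM. The difference of median distances was 0 nt. By distinct positions the chromosome M difference of 0.745 points was 0.00799. For the signals and for chromosome M, distinct positions were counted at full, unequal depth. The distal share difference of -0.891 points was -0.154 from 20 CPM, and the upstream difference of 1863 CPM was 674.5 from 10 kb. Counts of clusters whose groups did not overlap were 3053 higher and 3873 lower from 5 CPM and 383 and 526 from 100 CPM. Without 1 library, which relaxes the order, they were 2166 to 2733 and 2654 to 3310.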
